A study of Mus musculus with 9 samples.

Results

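Eosinophils sorted from the quadriceps of dystrophic mice were compared with and without an interleukin-5 transgene. Of the 9 libraries of the series, 6 enter the comparison: 3 labelled mdx (S4, S5 and S6) and 3 labelled mdx_IL5Tg (S1, S2 and S3), chosen by the group in their titles. Both groups were adult mice on the mdx background, a dystrophin-deficient strain that models Duchenne muscular dystrophy, and the labels give no difference between them other than the transgene. The mdx_IL5Tg mice carried an interleukin-5 transgene in addition; which promoter drives it, and in which cells, is not given in the sources used here. The remaining 3 libraries, labelled IL5Tg, come from transgenic mice that their titles do not place on the mdx background, although their strain label, like that of every sample, names mdx; they entered the estimate of the spread, and their levels are given only for reference. Flow cytometry had collected live CD45+ Siglec-F+ cells and had gated out those with CD11c, Gr1 or MHC class II. The design text calls the 3 replicates of each group biological.

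Interleukin-5 is the cytokine that drives eosinophil production in the marrow, their release into blood and their survival in tissue. It binds a receptor made of Il5ra and the common beta chain, and signals through the kinases JAK2 and LYN to the transcription factor STAT5. STAT5 induces survival genes of the BCL2 family and feedback inhibitors of the CIS/SOCS family. In dystrophic muscle, eosinophils are among the leukocytes that infiltrate degenerating and regenerating fibres.

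Counts were the authors' RSEM estimates, and levels are CPM (counts scaled to a common library size with TMM factors), given as each library's value or as mean ± SD over 3 libraries. Changes are log2 differences of mdx minus mdx_IL5Tg, so a positive change is a higher level in mdx, and "rose" and "fell" are used of mdx relative to mdx_IL5Tg. Total counts ranged from 29200231 to 58368283 in the 6 libraries. On the first principal component of the 6 libraries, which held 52.1% of the variance, all mdx libraries lay on 1 side and all mdx_IL5Tg libraries on the other. The second, with 24.0% of the variance, set mdx S5 apart from mdx S4 and S6; mdx S5 had the fewest counts, 0.383% of counts from mitochondrial transcripts against 1.28% to 1.67% in the other 5 libraries, and correlations of 0.957 and 0.958 with S4 and S6, which correlated at 0.987 (Pearson's r over genes, log2 CPM).

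Il5 itself (ENSMUSG00000036117.2, chromosome 11, 53720794 to 53725106, protein coding, GRCm38) stood at 664, 724 and 696 CPM in mdx_IL5Tg S1, S2 and S3 and at 0.335, 0.402 and 0.265 CPM in mdx S4, S5 and S6. The groups lay far apart in the direction of their labels (log2 change -11.03, SE 0.29, edgeR adjusted p = 8.8e-09). Cd3d, a chain of the T cell receptor complex, also separated the groups, at 1.62, 1.08 and 1.49 CPM in mdx_IL5Tg and 0.188, 0.167 and 0.193 CPM in mdx (log2 change -2.90, SE 0.35, edgeR adjusted p = 4.4e-04). Its counts were 82, 43 and 57 in mdx_IL5Tg and 9, 5 and 8 in mdx. Its partner chains did not follow it: Cd3e had 0, 0 and 2 counts in mdx_IL5Tg against 11, 0 and 3 in mdx, and Cd3g had 0, 0 and 1 against 5, 4 and 3. In the 3 IL5Tg libraries Cd3d had 78, 83 and 61 counts.

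Of 15886 genes tested, 1830 were higher in mdx (11.5%) and 1603 lower (10.1%) at an edgeR adjusted p under 0.05. Past 2-fold there were 1388 higher (8.74%) and 527 lower (3.32%). All 3 libraries of 1 group lay above all 3 of the other in 23.2% of genes with mdx higher and 18.8% with mdx lower. The shares of called genes are the background against which the gene groups below are read. Among gene lists, those with most of their tested members lower in mdx were glycolysis (18 of 20), eosinophil surface and lineage genes (11 of 17) and the hypoxia response (12 of 23). Those with most members higher in mdx were fibroblast and matrix (17 of 20), macrophage (15 of 18), muscle fibre (14 of 20), satellite cell (7 of 11), interferon response (17 of 28) and Trem2-linked phagocyte genes (11 of 19). In total the groups did not overlap in 42% of genes. The number of genes higher in mdx rested on several libraries: it was 429 when mdx_IL5Tg S1 was left out, 945 when mdx_IL5Tg S3 was, 600 when mdx S4 was and 916 when mdx S6 was, with 1092, 1557, 1282 and 1442 genes lower. With library totals in place of TMM factors the median change of all genes moved from 0.13 to 0.46, a shift of 0.32, and the share of called genes that were higher in mdx from 53.3% to 84.3%. That share was 39.8% in a fit of the 6 libraries alone, and 28.2%, 37.8%, 31.9% and 38.8% in the fits that left out 1 of the 4 libraries named.

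**Figure D1:**
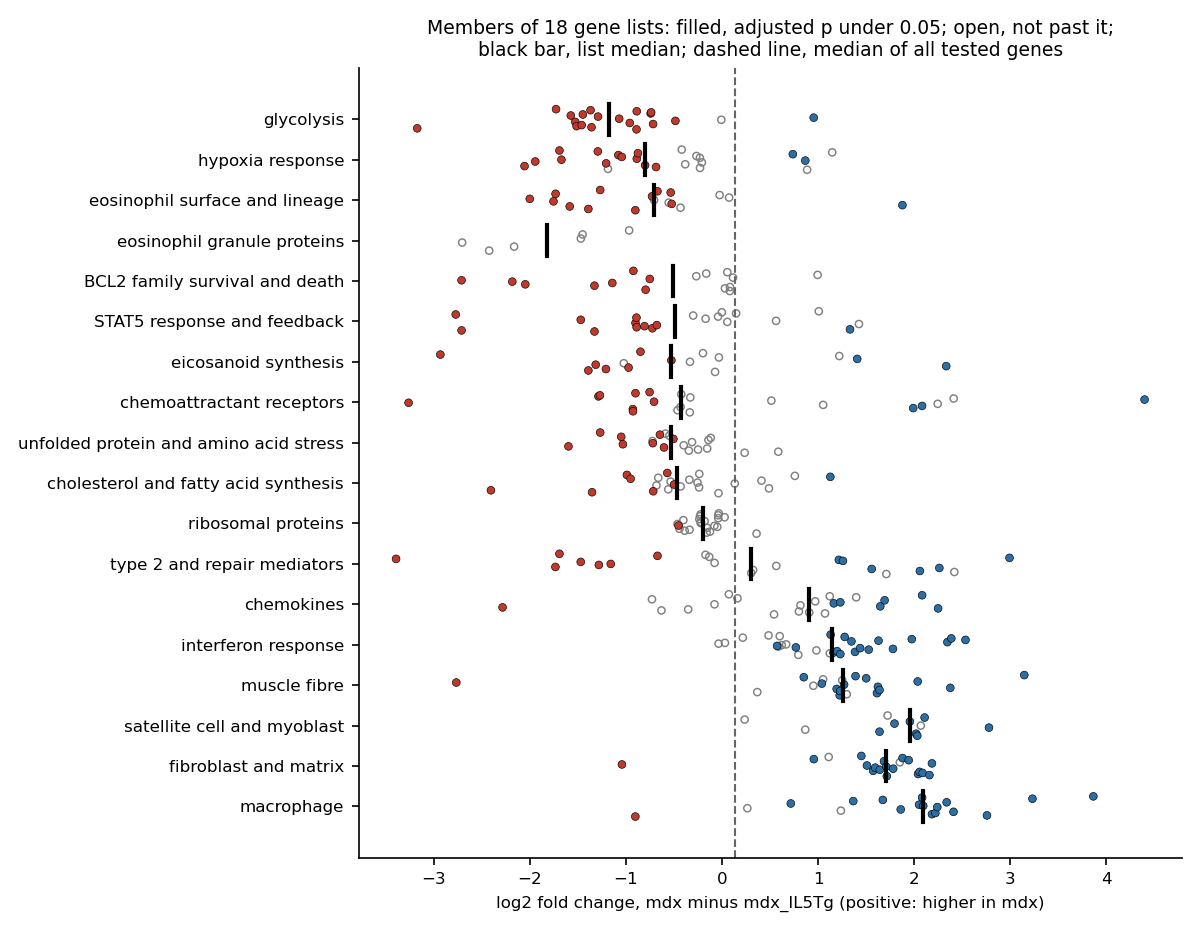
log2 fold change of mdx minus mdx_IL5Tg for every tested member of 18 gene lists; filled points passed an edgeR adjusted p under 0.05 (red lower in mdx, blue higher), open points did not, black bars are list medians and the dashed line is the median of all tested genes, 0.13. Glycolysis lies to the left with a median of -1.18, and macrophage, satellite cell and fibroblast lists lie to the right with medians of 2.09, 1.96 and 1.71.

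Several of the largest falls after Il5 were of genes near silent in mdx. Cmtm2a and Cmtm1, chemokine-like membrane proteins encoded side by side on chromosome 8, were near 0 in mdx. Cmtm2a stood at 13.5, 13.3 and 20.5 CPM in mdx_IL5Tg and 0.0209, 0 and 0.0965 CPM in mdx, and Cmtm1 at 13.9, 11.3 and 18.2 CPM and 0, 0.0669 and 0.0965 CPM. These loci overlap, so the assignment of reads between them is uncertain. Crhbp, which binds corticotropin-releasing hormone, was at 18.5, 18.8 and 22.03 CPM in mdx_IL5Tg and 0.167, 0.167 and 0.0482 CPM in mdx. Every transgenic library lay far above every mdx library, a change of -7.25 (SE 0.32, edgeR adjusted p = 5.3e-07). Cdkn2a (ENSMUSG00000044303.6, chromosome 4, 89274471 to 89294653), which encodes the cell cycle inhibitors INK4A and ARF, was at 37.1, 24.8 and 25.4 CPM in mdx_IL5Tg and 0.105, 0.402 and 0.313 CPM in mdx, a change of -6.79 (SE 0.40, edgeR adjusted p = 3.7e-06). Its neighbour Cdkn2b changed by -2.33 (SE 0.30). Cyp11a1, the side-chain cleavage enzyme that starts steroid synthesis from cholesterol, was at 50.6, 65.2 and 52.2 CPM against 0.921, 0.536 and 0.8199 CPM (log2 change -6.17, SE 0.22, edgeR adjusted p = 9.7e-08). These genes were not silent in the IL5Tg libraries, where Crhbp was at 30.2 ± 4.14, Cdkn2a at 23.5 ± 5.65 and Cyp11a1 at 87.1 ± 9.17 CPM (SD, n = 3).

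Membrane and metabolic genes made up the rest of the largest falls. Not all were near silent in mdx, where Abca13 stood at 22.2, 15.1 and 27.2 CPM. Car4, a carbonic anhydrase anchored at the cell surface, went from 179 ± 27.6 CPM in mdx_IL5Tg to 3.297 ± 0.565 CPM in mdx (SD, n = 3). Upp1, which splits uridine into uracil and ribose phosphate, was at 205, 186 and 169.98 CPM in mdx_IL5Tg and 9.61, 7.66 and 9.33 CPM in mdx. The groups lay far apart, by -4.39 (SE 0.15, edgeR adjusted p = 6.5e-08). Kcnk5, a 2-pore potassium channel, changed by -5.29 (SE 0.29), Aifm3, a flavoprotein related to apoptosis-inducing factor, by -4.62 (SE 0.28), Fndc5, the precursor of irisin, by -4.31 (SE 0.23) and the lipid transporter Abca13 by -3.89 (SE 0.28). Ccl6, a chemokine made by myeloid cells, was the most abundant transcript among 2-fold falls, at 7327, 6628 and 7725 CPM in mdx_IL5Tg and 1526, 934 and 1989 CPM in mdx. Other abundant transcripts that fell were Serpinb2, an inhibitor of plasminogen activators (-1.44), the actin-binding peptide gene Tmsb4x (-1.26), Kctd12 (-1.10), Cytip, which binds cytohesins (-1.03), and Cyp4f18, which oxidises leukotriene B4 (-1.17).

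**Figure D2:**
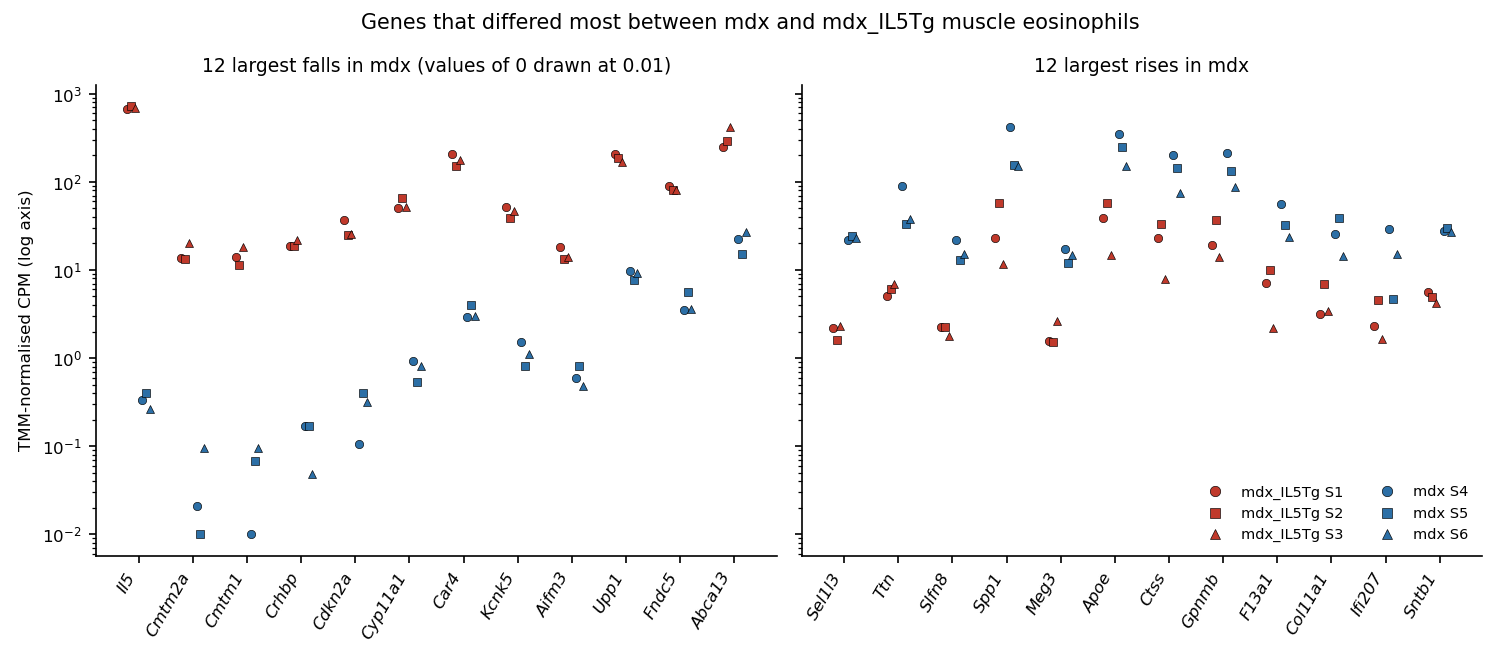
TMM-normalised CPM (log axis) of the 12 genes with the largest falls (left) and the 12 with the largest rises (right) in mdx under the naming rule; each point is 1 library, red for mdx_IL5Tg and blue for mdx. The groups do not overlap for any of these genes, since the rule required it; Ifi207 comes closest, with mdx S5 at 4.69 CPM and mdx_IL5Tg S2 at 4.51 CPM.

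Of the chains of the interleukin-5 receptor, Il5ra did not differ beyond the spread, and the beta chain was lower in mdx in some fits only. Il5ra, the ligand-binding chain, was at 52.1, 52.97 and 69.2 CPM in mdx_IL5Tg and 64.4, 49.2 and 69.8 CPM in mdx, and the groups overlapped (log2 change 0.074, SE 0.17, edgeR adjusted p = 0.78). Csf2rb, the common beta chain, chosen after its values were seen, was at 3262, 3215 and 3599 CPM and 2296, 2439 and 2182 CPM. Each mdx library lay below each transgenic one, but it did not pass in the fit of all libraries (log2 change -0.54, SE 0.21, edgeR adjusted p = 0.090). It passed with DESeq2 (adjusted p = 0.049), with voom quality weights (0.012), in edgeR with no expression filter (0.031) and in an edgeR fit of the 6 libraries alone (0.014). Of 19 tested receptor, JAK, STAT and proximal kinase genes, 2 fell and 2 rose, with a median change of -0.019 against 0.13 over all tested genes. Under scaling by library totals 6 rose and 1 fell, and with voom quality weights 4 rose and 5 fell. The kinase gene Lyn fell by 1.11 on the log2 scale, from 1063 ± 115 to 491 ± 45.95 CPM (edgeR adjusted p = 0.0014), and Stat3 changed by -0.59 (SE 0.18). Stat5a rose from 22.5 ± 2.498 to 38.03 ± 6.57 CPM (log2 change 0.75, SE 0.16, edgeR adjusted p = 0.0077), as did the phosphatase gene Ptpn6, by 0.43 (SE 0.14). Stat3 did not pass when mdx_IL5Tg S1 or S2 or mdx S4, S5 or S6 was left out or under scaling by library totals (edgeR adjusted p from 0.051 to 0.23), nor did Stat5a when mdx_IL5Tg S3 was left out (edgeR adjusted p = 0.060). Ptpn6 did not pass when mdx_IL5Tg S1, S2 or S3 or mdx S4, S5 or S6 was left out, with DESeq2, under RLE factors, with no expression filter or in a fit of the 6 libraries alone (edgeR or DESeq2 adjusted p from 0.060 to 0.32). Interleukin-5 receptor and JAK-STAT genes that rose numbered 0 when mdx_IL5Tg S3 was left out and 1 when mdx_IL5Tg S1 or S2 or mdx S4, S5 or S6 was left out, with DESeq2 or under RLE factors, and interleukin-5 receptor and JAK-STAT genes that fell numbered 1 when mdx_IL5Tg S1 or S2 or mdx S4 or S6 was left out or under scaling by library totals. Interleukin-5 receptor and JAK-STAT genes had a median change of 0.30 under scaling by library totals.

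Genes induced by STAT5 were lower in mdx in many cases, while few rose. Of 20 tested response and feedback genes 10 fell, against 10.1% of all tested genes, and 1 rose, the median being -0.49. Socs2, a feedback inhibitor of cytokine receptors, was at 178, 162 and 205 CPM in mdx_IL5Tg and 27.2, 26.2 and 26.5 CPM in mdx. The mdx libraries lay close together and far below all transgenic libraries (log2 change -2.77, SE 0.13, edgeR adjusted p = 8.5e-07). Cish, the feedback inhibitor named for its induction by cytokines, went from 340.2 ± 39.2 to 194 ± 19.3 CPM (SD, n = 3), a smaller change of -0.81 (SE 0.14). Osm, which encodes the interleukin-6 family cytokine oncostatin M, was at 456, 399 and 389.9 CPM in mdx_IL5Tg and 148, 125 and 176 CPM in mdx (log2 change -1.47, SE 0.17, edgeR adjusted p = 3.8e-04). The D-type cyclin Ccnd3 changed by -0.89 (SE 0.12), the survival kinase gene Pim2 by -0.89 (SE 0.16), Dusp6, a phosphatase of ERK kinases, by -0.68 (SE 0.14) and Lif by -0.90 (SE 0.19). Ccnd1, the cyclin of the same type that rose, went from 8.76 ± 3.54 to 22.04 ± 5.73 CPM. Dusp6 did not pass under scaling by library totals (edgeR adjusted p = 0.099), nor did Ccnd1 when mdx_IL5Tg S1 or mdx S4 was left out (edgeR adjusted p from 0.059 to 0.073).

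Survival genes of the BCL2 family fell in mdx together with some death genes. Of 16 tested members 8 fell and none rose in edgeR (1 at an unadjusted p under 0.05, 0 with DESeq2); the median was -0.51. Bcl2l1, which encodes the anti-apoptotic protein BCL-XL, was at 154, 136 and 152 CPM in mdx_IL5Tg and 23.7, 26.7 and 17.3 CPM in mdx. The groups lay far apart, and the change was -2.71 (SE 0.17, edgeR adjusted p = 4.3e-06). Bcl2a1a, Bcl2a1d and Bcl2a1b, near-identical anti-apoptotic paralogs that share reads, changed by -2.05 (SE 0.17), -2.18 (SE 0.19) and -1.14 (SE 0.12), and their separate values are uncertain for that reason. Bcl2 was low throughout and went from 9.55 ± 2.04 to 3.8001 ± 0.441 CPM (-1.33, SE 0.24). Bcl2l1 and Bcl2 were also counted among the STAT5 response genes that fell, so these lists overlap. The 8 that fell were not all protective: Bak1, a pore-forming effector of apoptosis, and the BH3-only genes Pmaip1 and Bcl2l11 fell as well (-0.80, -0.92 and -0.75). Mcl1, another survival gene and the most abundant of the family, overlapped between the groups, at 1339, 1138 and 1185 CPM in mdx_IL5Tg and 1049, 1774 and 981 CPM in mdx (0.055). Bak1, Pmaip1, Bcl2l11 and Mcl1 were chosen after their values were seen. Bak1 and Bcl2l11 did not pass under scaling by library totals (edgeR adjusted p from 0.057 to 0.11).

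**Figure D3:**
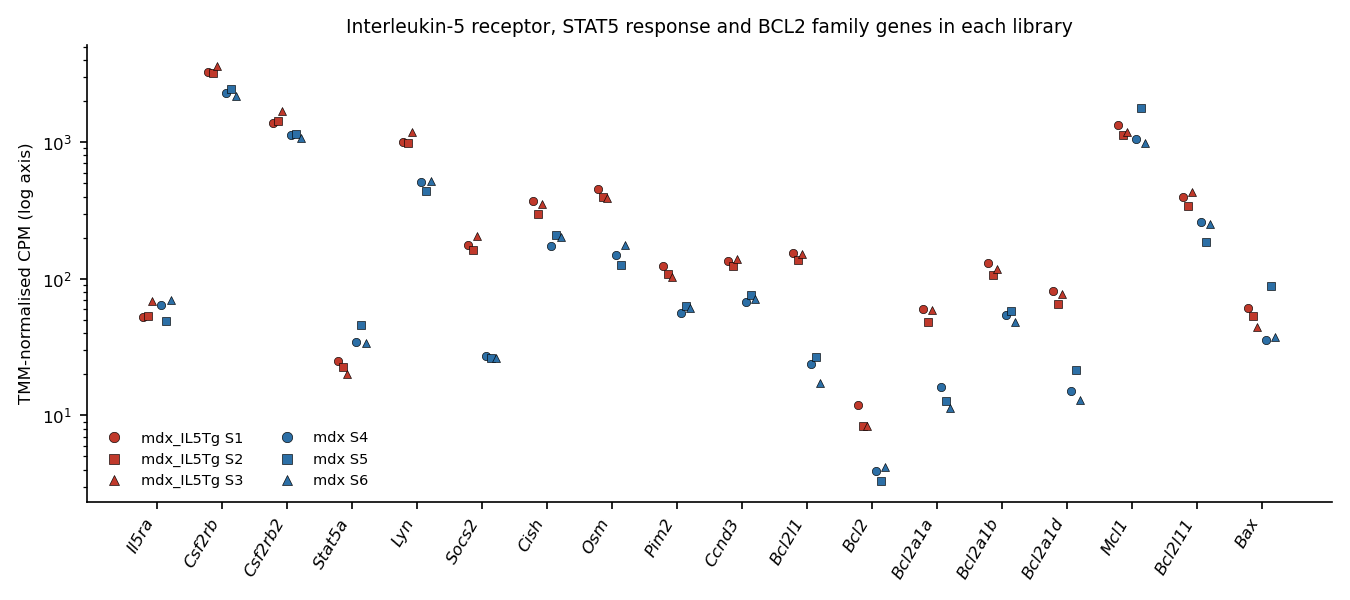
TMM-normalised CPM (log axis) in each library of 18 genes of the interleukin-5 receptor, the STAT5 response and the BCL2 family; red points are mdx_IL5Tg and blue points mdx. Il5ra overlaps between the groups, whereas Socs2 and Bcl2l1 lie below every transgenic library in all 3 mdx libraries.

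Surface and lineage genes of eosinophils also fell in mdx, and granule protein genes split the mdx libraries. Of 17 tested surface and lineage genes 11 fell and 1 rose, with a median of -0.71. Siglecf, whose protein was the positive gate of the sort, was at 529, 449 and 584 CPM in mdx_IL5Tg and 164, 129 and 177 CPM in mdx (log2 change -1.73, SE 0.16, edgeR adjusted p = 7.2e-05). Ccr3, the eotaxin receptor, did not pass in the fit of all libraries, at 1366, 1441 and 1310.3 CPM and 1109, 809 and 1134 CPM (log2 change -0.43, SE 0.16, edgeR adjusted p = 0.081). It passed as lower in mdx with DESeq2 (adjusted p = 0.033), with voom quality weights (0.032) and in an edgeR fit of the 6 libraries alone (0.044). Il1rl1, the interleukin-33 receptor, went from 1574 ± 144 to 393 ± 30.1 CPM and Cd24a, a heavily glycosylated surface protein, from 1790.4 ± 105 to 597 ± 58.3 CPM (SD, n = 3). Gata2, a transcription factor of the lineage, changed by -1.75 (SE 0.19); Cebpa, a myeloid transcription factor chosen after its values were seen, rose by 1.88 (SE 0.37). In bulk RNA of sorted cells, fewer cells of a type and less RNA per cell cannot be told apart.

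Granule protein genes had the lowest median of the lists described here, -1.82, but of 6 tested none fell in edgeR (1 at an unadjusted p under 0.05, 1 with DESeq2). In 4 of the 6 every mdx library lay below every transgenic one, as in 18.8% of all tested genes. Summed over the list they were at 1190, 1296 and 975 CPM in mdx_IL5Tg S1, S2 and S3, at 117 and 113 CPM in mdx S4 and S5, and at 836 CPM in mdx S6. Prg2, the major basic protein gene, stood at 651, 689 and 515 CPM in mdx_IL5Tg and at 79.3, 96.1 and 503 CPM in mdx, so that mdx S6 was close to the transgenic libraries while S4 and S5 lay far below (log2 change -1.45, SE 0.76, edgeR adjusted p = 0.21). Epx, eosinophil peroxidase, was at 151, 191 and 139 CPM in mdx_IL5Tg and 16.1, 7.13 and 151 CPM in mdx, with mdx S6 again at the transgenic level. Ear6, an eosinophil ribonuclease, was at 169.6, 184 and 145 CPM and 8.98, 3.68 and 63.7 CPM; mdx S6 lay above S4 and S5 but below every transgenic library. Ear6 passed as lower in mdx with DESeq2 (adjusted p = 0.021), limma voom (0.0058) and voom quality weights (0.0052). Without mdx S6, 6 of 6 passed as lower in mdx, Prg2 at an edgeR adjusted p of 0.0083. With mdx S6 kept, limma voom called 4 and voom with quality weights 3. Several neutrophil genes were also highest in mdx S6. S100a8, a calcium-binding protein of neutrophils, was at 1.62, 4.13 and 2.98 CPM in mdx_IL5Tg and 2.85, 0.167 and 28.5 CPM in mdx, and its partner S100a9 at 9.14, 14.5 and 8.01 CPM and 4.92, 3.41 and 56.96 CPM. The antimicrobial genes Camp and Ltf stood at 1.24, 0.134 and 18.1 CPM and at 7.37, 4.62 and 61.7 CPM in the mdx libraries, and mdx S6 was the highest of all 6 libraries for each of these 4 genes. Ngp, another neutrophil granule gene, was at 105, 109.97 and 70.3 CPM in mdx_IL5Tg and 7.22, 1.104 and 132 CPM in mdx. The whole neutrophil list summed to 1209 to 1609 CPM in mdx_IL5Tg and 968 to 1627 CPM in mdx. Of its 16 tested genes 2 rose and 2 fell. The highest sum was that of mdx S5 (1627 CPM), not mdx S6 (1363 CPM). The mdx S6 sum also lay below those of mdx_IL5Tg S1 (1609 CPM) and S2 (1476 CPM), though above that of S3 (1209 CPM). Neutrophil genes that rose numbered 0 when mdx_IL5Tg S2 or S3 or mdx S4 or S6 was left out and 1 when mdx_IL5Tg S1 was left out, with no expression filter or under the stricter filter, and neutrophil genes that fell numbered 4 when mdx S6 was left out. Their part in the granule result was not tested.

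Nearly the whole pathway of glucose breakdown fell in mdx. Of 20 tested glycolysis genes 18 fell, with a median of -1.18, and 1, the muscle phosphofructokinase gene Pfkm, rose. The uptake step fell with Slc2a3, a glucose transporter, at 1258, 1118 and 1042 CPM in mdx_IL5Tg and 362, 498 and 464 CPM in mdx. In the middle of the pathway Gapdh was at 2647, 2257 and 2056 CPM in mdx_IL5Tg and 763, 851 and 823 CPM in mdx (log2 change -1.51, SE 0.15, edgeR adjusted p = 1.1e-04), and Ldha, which makes lactate, at 1293, 1201 and 992 CPM and 381, 446 and 382 CPM (log2 change -1.53, SE 0.15, edgeR adjusted p = 8.6e-05). In each of these genes every transgenic library lay above every mdx library. Gpi1, Tpi1, Pgam1, Pgk1 and Eno1, enzymes of successive steps, changed by -1.46, -1.73, -1.57, -1.45 and -1.36. Aldoc, an aldolase isoform, had the largest change of the list, -3.17 (SE 0.33), from 8.97 ± 1.46 to 1.001 ± 0.232 CPM. Pfkm did not pass when mdx_IL5Tg S1, S2 or S3 or mdx S4, S5 or S6 was left out, with no expression filter or in a fit of the 6 libraries alone (edgeR adjusted p from 0.052 to 0.16).

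Hypoxia response genes fell as well. Of 23 tested 12 fell and 2 rose, with a median of -0.80. Vegfa, the angiogenic growth factor, was at 1014, 936 and 1042 CPM in mdx_IL5Tg and 279, 308 and 338 CPM in mdx (log2 change -1.69, SE 0.14, edgeR adjusted p = 3.3e-05), with no overlap. Bnip3, a mitophagy receptor, went from 62.8 ± 11.2 to 15.1 ± 1.03 CPM (-2.06, SE 0.19), and Egln3, an oxygen-sensing hydroxylase, from 66.4 ± 7.72 to 17.3 ± 4.27 CPM (-1.94, SE 0.20). Pdk1, a kinase that keeps pyruvate out of the mitochondrion, changed by -1.29 (SE 0.16), Ero1l, an oxidase of the endoplasmic reticulum, by -1.67 (SE 0.18) and Hif1a, the oxygen-regulated transcription factor gene, by -0.89 (SE 0.15). The genes that rose were Epas1, which encodes HIF-2alpha (0.87), and Ndrg1 (0.74). In the IL5Tg libraries Vegfa was at 413 ± 54.3 and Gapdh at 1215 ± 145 CPM, between the other groups. The summed hypoxia response list also lay between them, at 3246 to 3955 CPM in IL5Tg. The summed glycolysis list did not: at 7879 to 9931 CPM in IL5Tg it overlapped mdx (6468 to 8534 CPM), below mdx_IL5Tg (13940 to 18010 CPM). Epas1 did not pass when mdx_IL5Tg S1 or S3 or mdx S4 or S6 was left out or in a fit of the 6 libraries alone (edgeR adjusted p from 0.088 to 0.23), nor did Ndrg1 when mdx_IL5Tg S1 or S3 or mdx S4, S5 or S6 was left out, under RLE factors or in a fit of the 6 libraries alone (edgeR adjusted p from 0.057 to 0.16). Hypoxia response genes that rose numbered 0 when mdx_IL5Tg S1 or S3 or mdx S4 or S6 was left out or in a fit of the 6 libraries alone and 1 when mdx S5 was left out or under RLE factors.

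**Figure D4:**
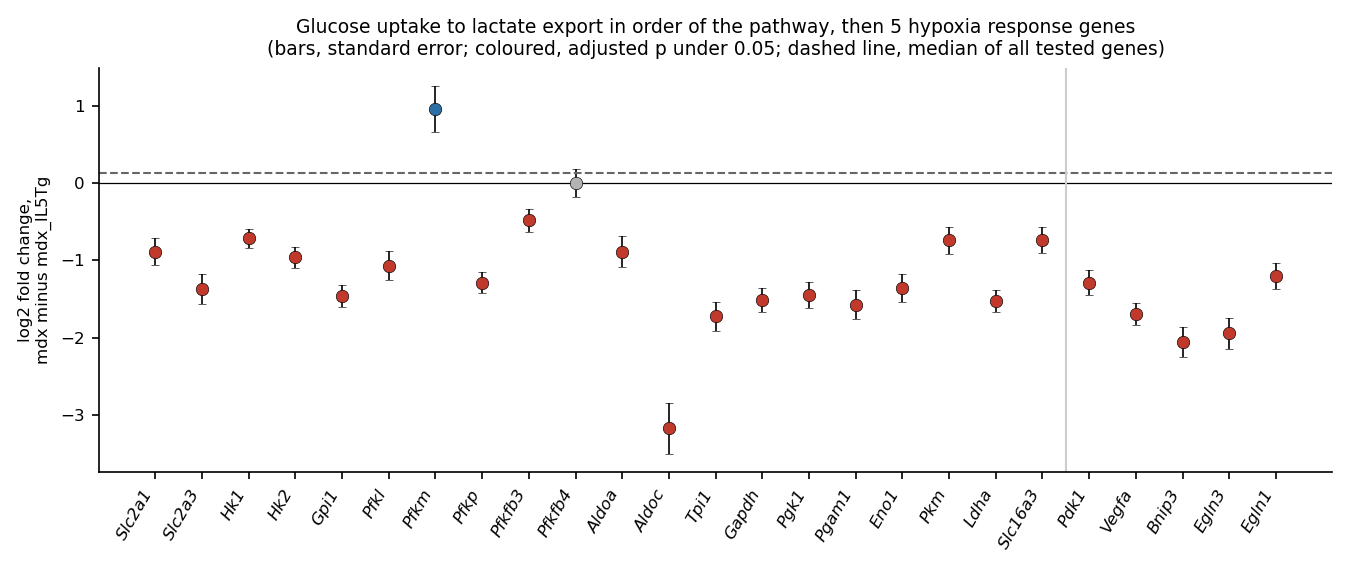
log2 fold change of mdx minus mdx_IL5Tg (points, with standard errors) for 20 glycolysis genes in the order of the pathway and 5 hypoxia response genes; the dashed line is the median of all tested genes, 0.13. Among the glycolysis genes Pfkm alone passed as higher in mdx, and Aldoc lies lowest at -3.17.

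HIF transcription factors bind DNA at the core letters ACGTG or GCGTG, so the promoters of the genes that fell together were searched for these letters on both strands, in the 250 bases before each RefSeq start (GRCm38.p6). Promoters were found for 17 of the 18 glycolysis genes that fell and 9 of the 12 hypoxia response genes. ACGTG stood in at least 1 promoter of 9 of the 17 (52.9%) and of 7 of the 9 (77.8%), against 24.6% of tested genes with a promoter sequence and 18.5% of all. Either form stood in 15 of the 17 (88.2%) and 9 of the 9 (100%), against 60.4% and 41.5%. The STAT dimer motif TTCNNNGAA stood in none of the 7 promoters found among the 10 STAT5 response genes that fell, against 7.23% of tested genes. With 7 genes and so low a background share, finding none cannot show a lack of the motif. The Cish window, among others, lay wholly within annotated exons. A match describes letters in a window and shows no binding, and the forms overlap where CACGTG is read on both strands. List members that did not fall were not scored, so these shares cannot be tied to the fall in mdx rather than to list membership. A part of HIF in the fall was not tested. The 3 genes of each list with the smallest p among those with a motif and no annotated exon base in the window follow, 5′ to 3′ on the gene's strand, with ACGTG and GCGTG of either strand in capitals.
Ldha, chr7:46845554-46845803, + strand: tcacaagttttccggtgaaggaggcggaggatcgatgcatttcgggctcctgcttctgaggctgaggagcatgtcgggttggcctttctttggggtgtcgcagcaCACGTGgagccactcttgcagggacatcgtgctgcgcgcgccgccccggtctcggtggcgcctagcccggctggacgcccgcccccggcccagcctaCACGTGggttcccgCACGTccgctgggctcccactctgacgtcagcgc
Gapdh, chr6:125165774-125166023, - strand: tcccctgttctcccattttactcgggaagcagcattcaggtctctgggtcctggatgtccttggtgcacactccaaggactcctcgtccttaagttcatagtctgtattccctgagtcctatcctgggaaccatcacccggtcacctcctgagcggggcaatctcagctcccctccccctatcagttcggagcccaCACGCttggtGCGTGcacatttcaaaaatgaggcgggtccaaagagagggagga
Pgam1, chr19:41911621-41911870, + strand: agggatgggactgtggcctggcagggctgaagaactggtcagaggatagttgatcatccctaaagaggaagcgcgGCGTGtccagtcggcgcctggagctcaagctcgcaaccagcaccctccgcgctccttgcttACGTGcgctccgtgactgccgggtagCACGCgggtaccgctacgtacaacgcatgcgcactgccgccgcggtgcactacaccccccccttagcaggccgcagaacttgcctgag
Egln3, chr12:54203875-54204124, - strand: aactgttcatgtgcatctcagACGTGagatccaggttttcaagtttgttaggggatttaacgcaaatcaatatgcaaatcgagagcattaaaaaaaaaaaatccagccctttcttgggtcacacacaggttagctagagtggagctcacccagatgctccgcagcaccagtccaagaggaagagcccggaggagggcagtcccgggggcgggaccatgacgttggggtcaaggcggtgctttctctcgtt
Mxi1, chr19:53329163-53329412, + strand: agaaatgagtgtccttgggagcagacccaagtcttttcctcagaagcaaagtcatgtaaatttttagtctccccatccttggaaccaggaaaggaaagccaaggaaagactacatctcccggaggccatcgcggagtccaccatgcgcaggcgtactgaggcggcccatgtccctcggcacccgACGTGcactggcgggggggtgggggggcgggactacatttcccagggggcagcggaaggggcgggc
Pdk1, chr2:71872974-71873223, + strand: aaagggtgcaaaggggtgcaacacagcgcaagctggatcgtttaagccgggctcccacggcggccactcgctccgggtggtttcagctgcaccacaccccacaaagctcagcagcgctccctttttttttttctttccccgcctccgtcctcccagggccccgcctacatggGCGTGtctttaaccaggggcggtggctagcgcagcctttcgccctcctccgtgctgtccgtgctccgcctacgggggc
The Ldha window held 5 matches, the Pgam1 window 3 and the Gapdh window 2, while those of Egln3, Mxi1 and Pdk1 held 1 each. Mxi1, a MYC antagonist, changed by -1.08 (SE 0.12).

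Other metabolic lists moved less. Of 22 tested genes of cholesterol and fatty acid synthesis 7 fell and 1 rose, with a median of -0.46. Acly, which makes cytosolic acetyl-CoA, went from 357 ± 35.9 to 139.8 ± 5.87 CPM (log2 change -1.35, SE 0.14, edgeR adjusted p = 1.8e-04). In the list of lipid uptake and storage Hilpda, a hypoxia-inducible lipid droplet protein, fell (-2.27, SE 0.17), and Lpl, lipoprotein lipase, rose (1.94, SE 0.33). Nuclear respiratory chain genes fell in 6 of 24 cases, Cox5a and Cox6c among them (-0.92 and -0.94), and ribosomal protein genes in 1 of 22. Genes of the unfolded protein and amino acid stress response fell in 8 of 20 cases, with the transcription factor Xbp1 at -1.27 (SE 0.15) and the chaperone Dnajb9 at -1.60 (SE 0.25). Cholesterol and fatty acid synthesis genes that fell numbered 3 under scaling by library totals and 4 when mdx_IL5Tg S1 was left out, and nuclear respiratory chain genes that fell numbered 3 under scaling by library totals. Unfolded protein and stress genes that fell numbered 5 under scaling by library totals. Nuclear respiratory chain genes had a median change of 0.051 under scaling by library totals. Ribosomal protein genes had a median change of 0.11 under scaling by library totals.

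Genes of type 2 cytokines and repair factors moved in both directions. Of 21 tested 7 fell and 6 rose, with a median of 0.30. Retnla, a resistin-like protein induced by interleukin-4 and listed in the file as Retnia, was at 1047, 849.9 and 1553 CPM in mdx_IL5Tg and 91.1, 137 and 100.3 CPM in mdx (log2 change -3.39, SE 0.30, edgeR adjusted p = 5.0e-05). Il4 and Il13, the type 2 cytokine genes, went from 17.3 ± 1.67 to 7.13 ± 1.301 and from 10.2 ± 0.717 to 3.05 ± 0.456 CPM, and their receptor chain Il4ra changed by -1.16 (SE 0.14). Il4 and Il13 were chosen after their values were seen. Tgm2, a transglutaminase chosen in the same way, was among the most abundant transcripts, at 11621, 11828 and 10838 CPM in mdx_IL5Tg and 7077, 6675 and 7769 CPM in mdx (-0.67, SE 0.16). Those that rose included Spp1 and Fn1, the latter chosen in the same way; Spp1, osteopontin, went from 30.8 ± 23.96 to 245 ± 156 CPM and Fn1, fibronectin, from 94.99 ± 52.004 to 396 ± 173 CPM. Tgm2 did not pass under scaling by library totals (edgeR adjusted p = 0.090), nor did Spp1 when mdx_IL5Tg S1 was left out (edgeR adjusted p = 0.054). Fn1 did not pass when mdx_IL5Tg S1 or mdx S4 was left out or with no expression filter (edgeR adjusted p from 0.057 to 0.070). Spp1 changed by 3.71 when mdx_IL5Tg S2 was left out and 2.25 when mdx S4 was left out. Type 2 and repair genes that rose numbered 0 when mdx_IL5Tg S1 was left out and 1 when mdx S4 was left out.

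Genes of lipid mediators and chemoattractant receptors fell in many cases. Of 15 tested eicosanoid enzymes 7 fell and 2 rose, with a median of -0.53. Ptgs1, cyclooxygenase-1, was at 120.1, 107 and 107 CPM in mdx_IL5Tg and 14.7, 12.8 and 16.3 CPM in mdx (log2 change -2.93, SE 0.15, edgeR adjusted p = 1.3e-06). Among those that fell, the 5-lipoxygenase gene Alox5 changed by -1.21 (SE 0.15), its activating protein Alox5ap by -0.97 (SE 0.12) and Lta4h, which makes leukotriene B4, by -1.31 (SE 0.15). Alox15, the 12/15-lipoxygenase of eosinophils, went from 2218 ± 328 to 845 ± 299 CPM. Of 20 tested chemoattractant receptors 8 fell and 3 rose: Cxcr2, a receptor of neutrophil-attracting chemokines, changed by -3.26 (SE 0.34), Ltb4r1, the leukotriene B4 receptor, by -1.29 (SE 0.14) and the complement receptor C5ar1 by -0.93 (SE 0.14). Eicosanoid synthesis genes that rose numbered 0 when mdx_IL5Tg S1 or S3 or mdx S4 was left out or in a fit of the 6 libraries alone and 1 when mdx S6 was left out or under the stricter filter, and chemoattractant receptor genes that rose numbered 1 when mdx_IL5Tg S1 or mdx S4 was left out. Chemoattractant receptor genes that fell numbered 4 under scaling by library totals.

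Surface receptors that restrain or tune leukocytes were split. Of 28 tested 9 fell and 5 rose, with a median of -0.24. Cd274, the checkpoint ligand PD-L1, was at 466, 467 and 543 CPM in mdx_IL5Tg and 120.3, 115 and 123 CPM in mdx (log2 change -2.05, SE 0.15, edgeR adjusted p = 1.5e-05). Cd80, a costimulatory ligand, changed by -1.31 (SE 0.15) and Cd200r1, an inhibitory receptor, by -1.44 (SE 0.24). Il1r2, the decoy receptor that binds interleukin-1 without signalling, went from 268 ± 15.1 to 47.2 ± 6.405 CPM (-2.51, SE 0.18), and Il1rn, the interleukin-1 receptor antagonist, changed by -0.99 (SE 0.19). Both belong to the list of NF-kB and inflammatory genes, of which 3 of 21 fell and 4 rose; among those that rose was Icam1, an adhesion ligand of integrins (1.26, SE 0.23). Inhibitory and paired receptor genes that rose numbered 0 when mdx S4 was left out, 1 when mdx_IL5Tg S1 was left out and 3 when mdx_IL5Tg S3 or mdx S6 was left out or in a fit of the 6 libraries alone, and NF-kB and inflammatory genes that rose numbered 1 when mdx_IL5Tg S1, S2 or S3 was left out and 2 when mdx S4 was left out or in a fit of the 6 libraries alone. Inhibitory and paired receptor genes had a median change of 0.077 under scaling by library totals.

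Most interferon response genes rose in mdx. Of 28 tested 17 rose, against 11.5% of all tested genes, and none fell in edgeR (0 at an unadjusted p under 0.05, 0 with DESeq2); the median was 1.15. Oasl1, an interferon-induced regulator of translation, was at 4.74, 6.24 and 1.91 CPM in mdx_IL5Tg and 23.8, 26.6 and 17.1 CPM in mdx (log2 change 2.39, SE 0.39, edgeR adjusted p = 0.0025). Ifit2, an interferon-induced RNA-binding protein, went from 5.68 ± 3.17 to 19.5 ± 5.52 CPM (1.78, SE 0.39), and Oas2, an antiviral enzyme that senses double-stranded RNA, changed by 2.53 (SE 0.59). Cxcl10, an interferon-induced chemokine, was at 11.6, 22.7 and 9.35 CPM and 36.4, 30.4 and 35.6 CPM, without overlap but with a smaller change of 1.23 (SE 0.30). In all 4 genes the lowest transgenic library was mdx_IL5Tg S3. Of 21 tested chemokines 6 rose, Cxcl16, a chemokine with a membrane-bound form, at 1.69 (SE 0.37) and the monocyte attractant Ccl7 at 1.65 (SE 0.39), and 1, Ccl6, fell. Ifit2, Oas2, Cxcl16 and Ccl7 did not pass when mdx_IL5Tg S1 was left out (edgeR adjusted p from 0.051 to 0.075), nor did Cxcl10 when mdx_IL5Tg S1 or S3 or mdx S4 or S6 was left out (edgeR adjusted p from 0.056 to 0.097). Interferon response genes that rose numbered 1 when mdx_IL5Tg S1 was left out, 3 when mdx_IL5Tg S3 or mdx S4 was left out and 9 when mdx S6 was left out, and chemokine genes that rose numbered 0 when mdx_IL5Tg S1 was left out, 3 when mdx_IL5Tg S3 or mdx S4 or S6 was left out and 10 when mdx S5 was left out.

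Most macrophage transcripts rose in mdx. Of 18 tested macrophage genes 15 rose and 1, Adgre1, the F4/80 antigen that eosinophils also carry, fell, with a median of 2.09. C1qb, a complement gene that marks tissue macrophages, was at 11.2, 15.5 and 2.38 CPM in mdx_IL5Tg and 63.2, 43.1 and 29.4 CPM in mdx (log2 change 2.22, SE 0.59, edgeR adjusted p = 0.026); mdx_IL5Tg S3 was the lowest and the groups did not overlap. Apoe, apolipoprotein E, was at 38.9, 57.7 and 14.6 CPM and 348, 251 and 153 CPM (log2 change 2.76, SE 0.45, edgeR adjusted p = 0.0029), in the same order of libraries. The scavenger receptor gene Msr1, chosen after its values were seen, changed by 3.23 (SE 0.61). Summed over the whole list the level ran the other way, from 2533 to 2791 CPM in mdx_IL5Tg and 1751 to 2277 CPM in mdx. Adgre1, which fell (2245 ± 192 against 1201 ± 124 CPM), holds most of that sum. Csf1r, another abundant member, did not fall (329 ± 20.98 against 395 ± 57.2 CPM). C1qb did not pass when mdx_IL5Tg S1 or mdx S4 was left out or with no expression filter (edgeR adjusted p from 0.085 to 0.12). Msr1 changed by 2.41 when mdx S4 was left out. Macrophage genes that rose numbered 5 when mdx S4 was left out and 6 when mdx_IL5Tg S1 was left out.

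Phagocyte and lysosomal genes moved in both directions. Trem2, a lipid-sensing receptor of phagocytes named in the title of the study, was at 2.09, 3.32 and 0.9399 CPM in mdx_IL5Tg and 15.4, 12.2 and 5.69 CPM in mdx (log2 change 2.39, SE 0.50, edgeR adjusted p = 0.0084). The groups did not overlap, and mdx S6 was the lowest of the mdx libraries. In the list of genes linked to it, 11 of 19 rose and 6 fell. Gpnmb, a glycoprotein of lipid-laden phagocytes, was at 19.1, 36.6 and 13.9 CPM in mdx_IL5Tg and 214, 132 and 88.3 CPM in mdx (log2 change 2.64, SE 0.43, edgeR adjusted p = 0.0027). Cst7, cystatin F, fell instead, from 48.3 ± 4.71 to 11.3 ± 3.83 CPM (log2 change -2.09, SE 0.23, edgeR adjusted p = 2.4e-04). Among lysosome genes 5 of 22 rose and 8 fell. The protease Ctsb was at 195, 245 and 107 CPM and 729.6, 495 and 366 CPM (1.54, SE 0.30), Ctss, an antigen-processing protease, changed by 2.72 (SE 0.56) and Ctsl by 1.22 (SE 0.26), while Ctsh changed by -1.22 (SE 0.13) and Gla, alpha-galactosidase, by -1.02 (SE 0.21). F13a1, a transglutaminase subunit of macrophages and platelets, rose by 2.55 (SE 0.50). Class II genes, whose protein the sort excluded, summed with dendritic cell genes to 32.8 to 144 CPM in mdx_IL5Tg and 182 to 274 CPM in mdx; 2 of 10 passed, Cd74 at 1.34 (SE 0.41) and Zbtb46 at 1.41 (SE 0.31). With limma voom 8 of the 10 were higher in mdx, with voom quality weights 8 and under scaling by library totals 5. Cd74 did not pass when mdx_IL5Tg S1 or S3 or mdx S4, S5 or S6 was left out, with no expression filter or in a fit of the 6 libraries alone (edgeR adjusted p from 0.059 to 0.17), nor did Zbtb46 when mdx_IL5Tg S1 was left out (edgeR adjusted p = 0.065). Trem2-linked phagocyte genes that rose numbered 6 when mdx_IL5Tg S1 was left out and 7 when mdx S4 was left out, and Trem2-linked phagocyte genes that fell numbered 3 under scaling by library totals. Lysosome genes that rose numbered 3 when mdx_IL5Tg S1 or mdx S4 was left out, and lysosome genes that fell numbered 2 under scaling by library totals, 3 when mdx_IL5Tg S1 was left out and 5 when mdx S5 or S6 was left out. MHC class II and dendritic cell genes that rose numbered 0 when mdx_IL5Tg S1 was left out and 1 when mdx_IL5Tg S3 or mdx S4, S5 or S6 was left out or in a fit of the 6 libraries alone. Lysosome genes had a median change of 0.00073 under scaling by library totals.

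Fibroblast and matrix transcripts rose in mdx and were lowest in mdx_IL5Tg S3. Of 20 tested fibroblast and matrix genes 17 rose and 1, Gsn, fell, with a median of 1.71; their summed level was 1553 to 4514 CPM in mdx_IL5Tg and 5920 to 12700 CPM in mdx. Col1a1, the main collagen chain of connective tissue, was at 651, 1324 and 299.7 CPM in mdx_IL5Tg and 2838, 5317 and 2002 CPM in mdx (log2 change 2.16, SE 0.54, edgeR adjusted p = 0.020). Pdgfra, a receptor that defines fibroblasts and their progenitors, changed by 1.94 (SE 0.40), and the basement membrane genes Col4a1 and Hspg2 by 1.33 (SE 0.33) and 1.26 (SE 0.28). Gsn, the actin-severing protein gelsolin, fell by 1.04 on the log2 scale. Col1a1 did not pass when mdx_IL5Tg S1 or S3 or mdx S4 or S5 was left out or with no expression filter (edgeR adjusted p from 0.055 to 0.093), nor did Col4a1 when mdx_IL5Tg S1 or mdx S5 was left out, with no expression filter or in a fit of the 6 libraries alone (edgeR adjusted p from 0.052 to 0.088). Hspg2 did not pass when mdx_IL5Tg S1 was left out (edgeR adjusted p = 0.057). Col1a1 changed by 2.75 when mdx_IL5Tg S2 was left out. Fibroblast and matrix genes that rose numbered 2 when mdx_IL5Tg S1 was left out, 5 when mdx S4 was left out, 6 when mdx_IL5Tg S3 was left out and 7 with no expression filter.

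Most muscle fibre and satellite cell genes tested rose in mdx. Of 20 tested muscle fibre genes 14 rose and 1, Neb, fell, with a median of 1.26. Ttn, titin, was at 5.06, 6.14 and 6.92 CPM in mdx_IL5Tg and 89.4, 32.9 and 37.9 CPM in mdx (log2 change 3.15, SE 0.45, edgeR adjusted p = 0.0012). Neb, nebulin, went the other way, at 344, 412 and 646 CPM and 78.4, 44.1 and 83.4 CPM (log2 change -2.77, SE 0.35, edgeR adjusted p = 6.1e-04), so that the giant sarcomere genes differed in direction. Neb stood at 477 ± 185 CPM in the IL5Tg libraries. Through Neb the summed level of the list was higher in mdx_IL5Tg (405 to 702 CPM) than in mdx (199 to 335 CPM), while Acta1, skeletal actin, was at 4.997, 6.72 and 5.2997 CPM in mdx_IL5Tg and 19.2, 9.71 and 10.8 CPM in mdx (1.23, SE 0.28). Satellite cell and myoblast genes rose in 7 of 11 cases with summed levels of 14.02 to 27.9 CPM and 50.6 to 70.98 CPM; Myod1, the myogenic regulator, changed by 1.80 (SE 0.40). Dmd, the gene mutated in mdx, rose by 1.19 (SE 0.34), from 2.199 ± 0.551 to 5.001 ± 2.11 CPM. The mdx mutation leaves a transcript, so this level does not check the strain. Acta1 did not pass when mdx_IL5Tg S1 or mdx S4 was left out (edgeR adjusted p from 0.072 to 0.075), nor did Myod1 when mdx_IL5Tg S1 was left out (edgeR adjusted p = 0.051). Dmd did not pass when mdx_IL5Tg S1 or S2 or mdx S4 or S6 was left out or in a fit of the 6 libraries alone (edgeR adjusted p from 0.067 to 0.15). Ttn changed by 2.48 when mdx S4 was left out. Muscle fibre genes that rose numbered 5 when mdx_IL5Tg S1 or mdx S4 was left out, 7 when mdx_IL5Tg S3 was left out, 8 in a fit of the 6 libraries alone and 9 when mdx_IL5Tg S2 was left out, and satellite cell and myoblast genes that rose numbered 2 when mdx_IL5Tg S1 or mdx S4 was left out.

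Markers of other cell types were also measured, including endothelial cells, which lack CD45 and which the gate on CD45+ Siglec-F+ cells would remove. Of 9 tested mast cell and basophil genes 3 rose and 1 fell, with the protease gene Mcpt4 at 0.435, 0.0755 and 0.0522 CPM in mdx_IL5Tg and 4.67, 0.736 and 1.06 CPM in mdx, most of it in mdx S4. The summed level of the list ran the other way, at 856 to 951 CPM in mdx_IL5Tg and 499 to 781 CPM in mdx. The gene that fell passed in 1 of the 6 fits that left out a library. Endothelial genes summed to 372 to 843 CPM and 809.6 to 1043 CPM, and 1 of 10 passed, Kdr at 1.22 (SE 0.26). Without mdx_IL5Tg S2 5 endothelial genes passed and without mdx S5 4; DESeq2 called 5, limma voom 4, voom quality weights 8 and scaling by library totals 6. T and natural killer cell genes summed to 4.72 to 7.12 CPM and 10.9 to 24.6 CPM, and B and plasma cell genes to 18.1 to 20.99 CPM and 14.2 to 22.1 CPM. Ncr1, a natural killer cell receptor, had 0 counts in all 3 mdx_IL5Tg libraries. Ly6g, a Gr1 antigen, had 40, 28 and 10 counts in mdx_IL5Tg against 0, 0 and 14 in mdx. It did not pass in edgeR (adjusted p = 0.14) but did with limma voom (0.049) and voom quality weights (0.036). Itgax, the CD11c gene, fell from 259, 245 and 190 CPM to 138, 102 and 122 CPM (log2 change -0.94, SE 0.17, edgeR adjusted p = 0.0045). Ly6c2, another sort exclusion marker, was at 33.0, 29.7 and 16.9 CPM against 13.5, 5.02 and 16.0 CPM (edgeR adjusted p = 0.10). Of 22 tested proliferation genes 1, Tyms, rose (1.63, SE 0.49). The summed levels of the fibroblast, satellite cell, class II and T and natural killer cell lists were higher in every mdx library than in every mdx_IL5Tg library. Those of the mast cell and basophil, monocyte, macrophage and muscle fibre lists were lower. Adgre1 and Neb, which fell, set the macrophage and muscle fibre sums, although most tested members of these 2 lists rose. The sum of B and plasma cell genes overlapped. The part of these other cell types in the results above was not tested. Mcpt4 did not pass when mdx S4 was left out (edgeR adjusted p = 0.12), nor did Kdr when mdx_IL5Tg S1 was left out (edgeR adjusted p = 0.065). Tyms did not pass when mdx_IL5Tg S1 or S3 or mdx S4 or S6 was left out (edgeR adjusted p from 0.087 to 0.15). Mcpt4 changed by 4.90 when mdx_IL5Tg S1 was left out and 2.12 when mdx S4 was left out. Mast cell and basophil genes that rose numbered 0 when mdx S4 was left out or under the stricter filter, 1 when mdx_IL5Tg S1 or S3 was left out or with limma voom and 5 when mdx S5 was left out.

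**Figure D5:**
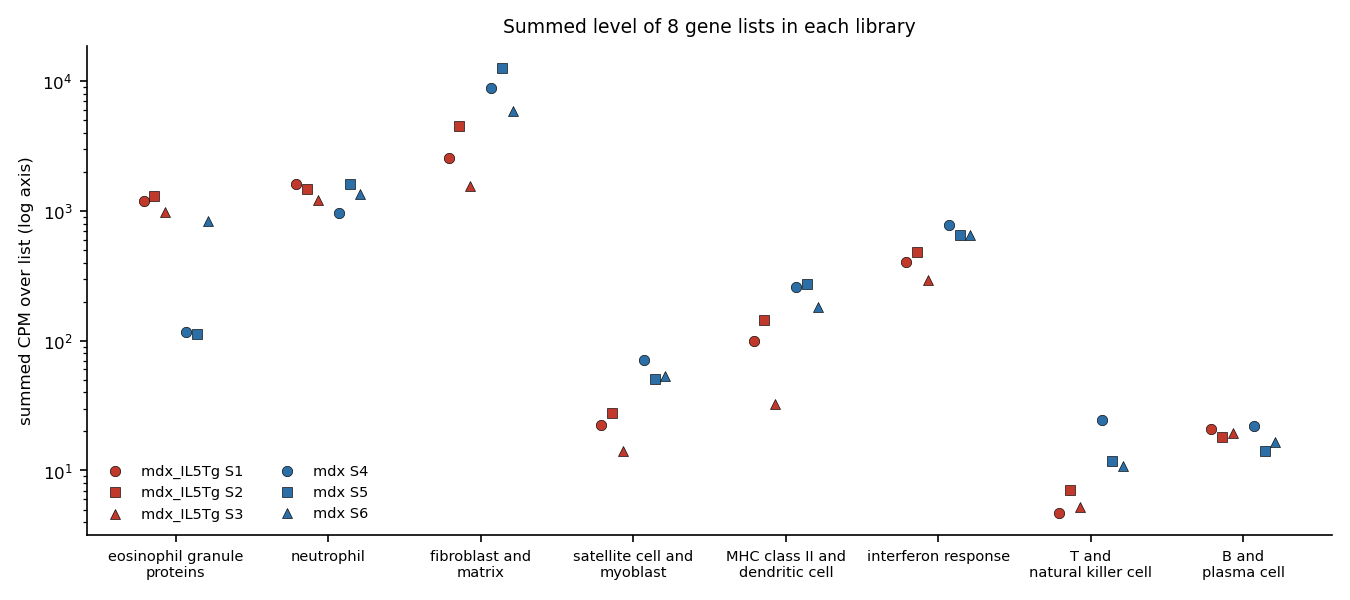
Summed CPM (log axis) of 8 gene lists in each library, red for mdx_IL5Tg and blue for mdx. Granule protein genes are low in mdx S4 and S5 but not in mdx S6, and fibroblast, satellite cell and class II genes are lowest in mdx_IL5Tg S3.

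Some of the largest and most abundant rises belonged to none of these lists. Sel1l3, a membrane protein related to an endoplasmic reticulum quality control factor, was at 2.19, 1.61 and 2.297 CPM in mdx_IL5Tg and 21.8, 24.2 and 23.1 CPM in mdx. All mdx libraries lay close together and far above the transgenic ones (log2 change 3.50, SE 0.21, edgeR adjusted p = 3.7e-06), and the IL5Tg libraries were at 1.304 ± 0.1105 CPM. Sntb1, a syntrophin that binds dystrophin, was at 5.69, 4.88 and 4.23 CPM and 27.8, 29.9 and 26.8 CPM, again without overlap (log2 change 2.51, SE 0.18, edgeR adjusted p = 1.2e-05). The imprinted genes Meg3, a long non-coding RNA, and Peg10, derived from a retrotransposon, rose by 2.93 (SE 0.33) and 1.12 (SE 0.19), Peg10 being at 282, 253 and 376 CPM in mdx_IL5Tg and 623, 588 and 769 CPM in mdx. Slfn8, of the interferon-inducible Schlafen family, rose by 3.00 (SE 0.58).

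Growth control and stimulus-induced genes changed in part. Of 16 tested cell cycle inhibitors and p53 targets 5 fell, Cdkn2a and Cdkn2b among them with Ccng1 (-1.20, SE 0.18) and Cdkn1b (-0.69, SE 0.12), and 2 rose. Of 23 immediate early genes 9 fell and 3 rose: Fos went from 791 ± 103 to 320.1 ± 37.05 CPM (-1.31, SE 0.18) and Nr4a3, a nuclear receptor induced by stimulation, changed by -1.24 (SE 0.20). Glucocorticoid response genes fell in 3 of 11 cases, with Per1 at -0.90 (SE 0.16). In the TGF-beta list 7 of 20 rose, including Inhba, the activin A subunit, at 1.76 (SE 0.31), and 2 fell, including the receptor Tgfbr2, at 1754, 1551 and 1683 CPM in mdx_IL5Tg and 673, 881 and 812 CPM in mdx. Of 17 metalloproteases and inhibitors 8 rose, Mmp19 at 2.35 (SE 0.42) and Mmp2 at 1.91 (SE 0.35), and 4 fell, Adam19 at -2.05 (SE 0.13). Cell cycle inhibitor and p53 target genes that rose numbered 0 when mdx_IL5Tg S1 or mdx S4 was left out and 1 when mdx_IL5Tg S2 or S3 or mdx S5 or S6 was left out, under RLE factors, with no expression filter or in a fit of the 6 libraries alone, and immediate early and AP-1 genes that rose numbered 0 when mdx_IL5Tg S1 or S3 or mdx S4 or S6 was left out and 1 in a fit of the 6 libraries alone. Immediate early and AP-1 genes that fell numbered 4 under scaling by library totals and 5 when mdx_IL5Tg S1 or mdx S4 was left out, and glucocorticoid response genes that fell numbered 1 when mdx_IL5Tg S1 or mdx S4 was left out or under scaling by library totals. TGF-beta genes that rose numbered 3 when mdx_IL5Tg S1 was left out, and TGF-beta genes that fell numbered 1 when mdx_IL5Tg S1 or S3 or mdx S4 was left out, under scaling by library totals, under the stricter filter or with mitochondrial, haemoglobin and small RNA genes removed. Metalloprotease genes that rose numbered 2 when mdx S4 was left out, 3 when mdx_IL5Tg S1 was left out, 4 when mdx_IL5Tg S3 or mdx S6 was left out and 5 in a fit of the 6 libraries alone, and metalloprotease genes that fell numbered 2 under scaling by library totals. Cell cycle inhibitor and p53 target genes had a median change of 0.13 under scaling by library totals. TGF-beta genes had a median change of 0.31 under scaling by library totals.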

How the data were processed

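The deposited table held expected counts for 54146 genes that the authors had estimated with RSEM and left unnormalised; they were rounded, 6.03% of them being fractional. Per the submitters' processing notes, cutadapt 2.10, STAR 2.5.3, RSEM 1.3.0 and limma were used with build mm10; the sources used here give no annotation, strand setting or parameters. RSEM divides reads among genes that share sequence, so near-identical paralogs and overlapping genes are uncertain. Columns were matched to groups by name; their S numbers are in no label. Genes were kept by filterByExpr (minimum count 10, 15886 of 54146), scaled by TMM and tested with edgeR 4.0.16 (quasi-likelihood, robust; R 4.3.3), all 9 libraries in 1 fit, with Benjamini-Hochberg adjustment and a threshold of 0.05. The error of a log2 change is the standard error from the F statistic. Data were simulated for this comparison (15569 genes), with 50 genes changed at each fold. There 76% of genes changed 4-fold, 58% of those changed 3-fold and 24% of those changed 2-fold were recovered, with 2 false calls. No 2 libraries of a group agreed within sampling noise.

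Positions come from GENCODE M21 (GRCm38) and promoters from RefSeq (GRCm38.p6). The members, the 43 gene lists and the naming rule were chosen with earlier results of these data known. The rule took, among called genes at or above the median level whose groups did not overlap, the 12 largest rises and falls and the 8 most abundant 2-fold rises and falls, from each list the 4 tested genes of smallest p, Il5, Dmd, Trem2, cell type markers, and called members of the promoter lists; any other gene is marked as picked later. Alternatives were DESeq2 1.42.0, limma 3.58.1 (voom, with and without quality weights), other scaling and filters, a fit of the 6 libraries and leaving out each library.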

Additional observations from a re-analysis of the deposited data

How the results depend on the processing

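Genes higher in mdx numbered 1830 in the fit reported and genes lower 1603. With voom quality weights they were 3981 and 2958, with library totals only 4007 and 746, and with only the groups compared 1188 genes were higher. Leaving out 1 library at a time gave 429 to 2035 higher and 1092 to 2022 lower; the cause was not tested. With DESeq2 they were 2278 and 2127, with limma voom 2282 and 1806. No paired analysis was possible because the columns carry no replicate number.

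Il5ra had a log2 change of 0.074, which was -0.018 with only the groups compared and -0.13 to 0.20 when 1 library was left out. Mcl1, at 0.055, was at -0.24 with voom quality weights, -0.026 with only the groups compared and -0.27 to 0.13 when 1 library was left out. Camp was at -0.30 with limma voom. When 1 library was left out Camp ranged from -1.81 to 2.03, Ltf from -1.16 to 1.46, S100a8 from -0.9997 to 2.43 and S100a9 from -1.43 to 1.55, each lowest without mdx S6 and highest without mdx S5. Under scaling by library totals only, medians of the interleukin-5 receptor, inhibitory receptor, TGF-beta, lysosome, lipid, respiratory chain, ribosomal, heat shock and cell cycle inhibitor lists changed sign, so their directions are relative to the TMM scale. With 3 libraries a group, changes under 2-fold can be missed. In the simulated data 24% of genes changed 2-fold and 6% of those changed 1.5-fold were recovered. Only 50 genes were changed at each fold there, whereas 21.6% of real genes were called, many with changes under 2-fold. Those shares therefore do not give the recovery in the real data.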

Other observations

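Genes outside the lists, chosen after their values were seen, changed as much as many of their members. Tlr4, the receptor for bacterial lipopolysaccharide, was at 93.1, 77.9 and 125 CPM in mdx_IL5Tg S1, S2 and S3 and at 12.4, 5.25 and 9.14 CPM in mdx S4, S5 and S6 (log2 change -3.46, SE 0.29, edgeR adjusted p = 3.6e-05). Wnt11, a secreted Wnt ligand, was among the abundant transcripts of the transgenic libraries, at 1033, 755 and 834 CPM, and stood at 65.9, 172 and 136 CPM in mdx (log2 change -2.81, SE 0.32, edgeR adjusted p = 3.2e-04). Mitf, a transcription factor of lysosomal and pigment cell genes, was higher in mdx in every library, at 17.4, 15.8 and 15.9 CPM against 2.94, 3.35 and 2.87 CPM (log2 change 2.42, SE 0.20, edgeR adjusted p = 3.3e-05).

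The class I genes H2-Q4, H2-Q6 and H2-Q7, near-identical paralogs whose separate values are uncertain, rose by 1.25 (SE 0.20), 2.17 (SE 0.41) and 2.38 (SE 0.35), H2-Q4 being at 105, 103 and 70.1 CPM in mdx_IL5Tg and 182, 277 and 204 CPM in mdx. The classical class I gene H2-K1 was at 918, 848 and 727 CPM and 1035, 1457 and 968 CPM and did not pass the test (log2 change 0.47, SE 0.18, edgeR adjusted p = 0.086), but passed under scaling by library totals (edgeR adjusted p = 0.0075). The imprinted genes Igf2, a fetal growth factor, and H19 rose by 1.43 (SE 0.28) and 1.58 (SE 0.43), H19 being highest in mdx S4 at 97.9 CPM. H19 did not pass when mdx_IL5Tg S1 or S3 or mdx S4 was left out, with no expression filter or in a fit of the 6 libraries alone (edgeR adjusted p from 0.061 to 0.14). H19 changed by 0.84 when mdx S4 was left out.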
